A study of Mus musculus with 6 samples.

Results

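Peg3, Phlda2, Cdkn1c and Mest are 4 imprinted mouse genes that act on growth, and their RNA was followed here in germ cell-like cells made by 2 routes and in embryonic stem cells. Gene names were at hand only for the 11542 probes in the authors' deposited table. All of these that the platform annotation assigns to the 4 genes were taken, 7 of the 45281 probes on each array. There were 2 for Peg3, 1 for Phlda2, 1 for Cdkn1c and 3 for Mest. All 7 probes passed the filter on dim probes, so 4 of the 6823 genes tested are members. The genes were picked with their values on these same arrays known. Their levels and differences are therefore given as a description, without p-values, and tests are given only for other genes.

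The study set primordial germ cell-like cells (PGCLCs) made by turning on Nanog against PGCLCs made with cytokines and against mouse embryonic stem cells (mESCs), with 2 arrays in each of the 3 groups. Nanog PGCLCs were collected on day 4 after epiblast-like cells, a primed state grown from ESCs, were moved to GK15 medium with doxycycline at 0.7 µg/ml, which switches on the pluripotency factor Nanog. Cytokine PGCLCs were collected on day 4 in the same base medium with LIF at 1000 U/ml, the Kit ligand SCF at 100 ng/ml, the growth factor EGF at 50 ng/ml, and the bone morphogenetic proteins BMP4 and BMP8A at 500 ng/ml apiece. The mESCs were kept in N2B27 medium with the GSK3 inhibitor CHIR99021 at 3 µM, the MEK inhibitor PD0325901 at 1 µM and LIF at 1000 U/ml. Cells of all 3 groups were male, of strain 129 x MF1, and carried the Nanog transgene. Nothing in the sources used here gives the number of cell clones, any sorting of the PGCLCs or whether replicates were separate cultures. The spread between replicates may thus be technical, and p-values measure only that spread. RNA came from whole samples, so fewer cells of a type and less RNA per cell cannot be told apart.

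An imprinted gene is read mainly from the copy inherited from one parent, because DNA methylation laid down in egg or sperm marks the other copy or a control region nearby. Paternally expressed genes such as Peg3 and Mest tend to promote growth of the embryo and placenta, and maternally expressed genes such as Phlda2 and Cdkn1c tend to restrain it. In the mouse, primordial germ cells erase these marks as they settle in the gonad, so that new ones can be set according to sex. Arrays of this kind measure total RNA of a gene and do not separate the parental copies.

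Median raw intensity was 226.2 and 294.3 in Nanog PGCLCs, 239.5 and 230.7 in cytokine PGCLCs, and 233.5 and 280.6 in mESCs. Between 8788 and 10028 probes per array were detected, which means a detection p below 0.01 against the negative controls of that array. The mESC arrays detected fewest, 9220 and 8788, against 9871 to 10028 on the PGCLC arrays. Their lowest detected signal was also higher, at 7.047 and 7.161 in normalized log2, against 6.875 to 6.904. A gene not detected in mESCs is therefore not shown to be absent there. Values below are normalized log2 intensities, corrected for background and brought to a common distribution, and differences are from 1 limma fit over the 6 arrays, in log2 units with the standard error (SE). Precision is limited by the small number of arrays. Of 8 early germ cell markers listed, 7 were tested, and 6 rose in Nanog PGCLCs and 7 in cytokine PGCLCs against mESCs (limma, Benjamini-Hochberg adjusted p below 0.05), beside 28.2% and 29.9% of all genes. The first count was 4 to 6 when 1 array was left out.

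CpG sites are the bases that DNA methylation marks. The 250 bases before the start of 3 of the genes are shown, read 5′ to 3′ on the gene's own strand with every CpG in capitals (RefSeq, GRCm38.p6). No window was at hand for Cdkn1c. Imprint control regions were not looked up, so these windows are not taken as the site of an imprint. The windows lie at chr7:6730420-6730669 on the minus strand for Peg3, at chr7:143502525-143502774 on the minus strand for Phlda2 and at chr6:30737800-30738049 on the plus strand for the second of the Mest starts listed.
Peg3: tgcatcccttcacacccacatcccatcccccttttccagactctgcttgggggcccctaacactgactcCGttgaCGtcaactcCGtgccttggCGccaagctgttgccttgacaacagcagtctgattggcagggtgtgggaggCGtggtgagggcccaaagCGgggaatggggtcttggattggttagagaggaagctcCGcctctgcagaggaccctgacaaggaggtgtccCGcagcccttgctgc
Phlda2: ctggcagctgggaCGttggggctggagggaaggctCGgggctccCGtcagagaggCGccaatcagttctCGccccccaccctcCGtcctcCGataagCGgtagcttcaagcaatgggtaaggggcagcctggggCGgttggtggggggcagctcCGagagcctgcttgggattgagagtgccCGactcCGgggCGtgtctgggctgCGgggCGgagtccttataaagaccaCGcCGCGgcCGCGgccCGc
Mest: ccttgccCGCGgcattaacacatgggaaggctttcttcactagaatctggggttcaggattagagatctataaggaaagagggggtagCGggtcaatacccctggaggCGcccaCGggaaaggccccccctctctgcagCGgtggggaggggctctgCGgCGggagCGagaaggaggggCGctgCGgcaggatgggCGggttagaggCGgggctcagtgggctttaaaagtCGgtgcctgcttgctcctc
The Phlda2 window held 21 CpGs, the Mest window 14 and the Peg3 window 8, against a median of 6 in the 32851 RefSeq windows of the same length. The window of the first Mest start, not shown, held 7 and neither GGCGCC nor GCCNNNGGC. As many or more were found in 16.3% of those windows for Phlda2, 29.4% for Mest and 43.0% for Peg3. The letters GGCGCC, searched on both strands, occurred in all 3 windows and in 9.59% of all windows. GCCNNNGGC, whose matches can overlap it, occurred in the Phlda2 and Mest windows and in 13.7% of all windows. CCATNTT occurred in none of the 3 and in 12.4% of all windows. These letter counts describe the sequence only, and methylation was not measured here.

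Peg3, a paternally expressed zinc finger gene tied to growth and to maternal behaviour in the mouse, stood at 3 separate levels. Its brighter probe read 9.59 and 9.59 in Nanog PGCLCs, 10.55 and 10.58 in cytokine PGCLCs, and 8.02 and 7.94 in mESCs. Cytokine PGCLCs were highest, Nanog PGCLCs lay between, mESCs were lowest, and no 2 groups overlapped. The fitted difference was 1.61 ± 0.09 in Nanog PGCLCs against mESCs (3.06-fold higher) and 2.59 ± 0.09 in cytokine PGCLCs against mESCs (6.02-fold higher). In Nanog PGCLCs against cytokine PGCLCs the difference was -0.98 ± 0.09 (1.97-fold lower).

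The raw intensities of that probe, before any correction, had the same order. They were 919.7 and 1235 in Nanog PGCLCs, 1649 and 1673 in cytokine PGCLCs, and 417.9 and 482.2 in mESCs, with the probe detected on all 6 arrays. The brighter of the Nanog PGCLC readings belongs to the array with the higher median, and after normalization both readings were equal to 2 decimals. The dim second probe was detected on both cytokine PGCLC arrays alone, at 7.16 and 6.93, and read 6.07 and 6.12 in Nanog PGCLCs and 5.37 and 5.38 in mESCs without detection. On this probe Nanog PGCLCs were at least 1.11-fold lower than cytokine PGCLCs, where "at least" marks a bound set by the lowest detected signal on the arrays without detection. No fold against mESCs is given for it, since the bound did not exceed 1 or neither group detected it. Both probes read highest in cytokine PGCLCs. The second passed the filter only through those arrays, so its order adds no support to that of the first.

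Phlda2, a maternally expressed gene for a small PH domain protein that restrains growth of the mouse placenta, stood out in cytokine PGCLCs. It read 7.01 and 7.03 in Nanog PGCLCs, 9.12 and 9.18 in cytokine PGCLCs, and 6.94 and 7.18 in mESCs. Nanog PGCLCs and mESCs overlapped, and both cytokine PGCLC arrays lay above all 4 others. The difference was -0.04 ± 0.11 in Nanog PGCLCs against mESCs, 2.09 ± 0.11 in cytokine PGCLCs against mESCs (4.25-fold higher) and -2.13 ± 0.11 in Nanog PGCLCs against cytokine PGCLCs (4.38-fold lower). Raw intensities were 317.5 and 421.3 in Nanog PGCLCs, 763.3 and 771.3 in cytokine PGCLCs, and 309.0 and 390.1 in mESCs. The low readings were near the background: detection p was 0.00641 and 0.00214 in Nanog PGCLCs, and 0.0171 and 0.00748 in mESCs, so that 1 of the 2 mESC arrays missed the detection limit.

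Cdkn1c, a maternally expressed inhibitor of cyclin-dependent kinases that slows the cell cycle, varied less. It read 7.14 and 7.23 in Nanog PGCLCs, 7.97 and 8.11 in cytokine PGCLCs, and 7.69 and 7.77 in mESCs. Cytokine PGCLCs were highest, mESCs next and Nanog PGCLCs lowest, with no overlap between groups. The difference was -0.54 ± 0.10 in Nanog PGCLCs against mESCs, 0.31 ± 0.10 in cytokine PGCLCs against mESCs (1.24-fold higher) and -0.85 ± 0.10 in Nanog PGCLCs against cytokine PGCLCs (1.80-fold lower). The raw readings of 331.8 and 449.7 in Nanog PGCLCs, 460.6 and 478.1 in cytokine PGCLCs, and 373.9 and 455.6 in mESCs placed cytokine PGCLCs highest as well. Nanog PGCLCs and mESCs overlapped in raw intensity and were apart after normalization.

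Mest, a paternally expressed gene for an enzyme of the alpha/beta hydrolase family, ran the other way and was lowest in cytokine PGCLCs. Its brightest probe read 9.91 and 9.91 in Nanog PGCLCs, 9.23 and 9.00 in cytokine PGCLCs, and 10.20 and 10.08 in mESCs. The groups did not overlap, with mESCs highest and cytokine PGCLCs lowest. The difference was -0.23 ± 0.11 in Nanog PGCLCs against mESCs, -1.03 ± 0.11 in cytokine PGCLCs against mESCs (2.03-fold lower) and 0.79 ± 0.11 in Nanog PGCLCs against cytokine PGCLCs (1.73-fold higher). The other 2 probes kept that order. The second read 9.36 and 9.12 in Nanog PGCLCs, 8.75 and 8.57 in cytokine PGCLCs, and 9.84 and 9.71 in mESCs. The third, the dimmest, read 7.32 and 7.81 in Nanog PGCLCs, 6.79 and 6.90 in cytokine PGCLCs, where 1 of 2 arrays detected it, and 8.26 and 8.24 in mESCs. Against mESCs the 2 further probes gave larger differences, -0.54 and -0.68 in Nanog PGCLCs and -1.12 and -1.41 in cytokine PGCLCs. Between Nanog and cytokine PGCLCs they gave 0.58 and 0.72.

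**Figure D1:**
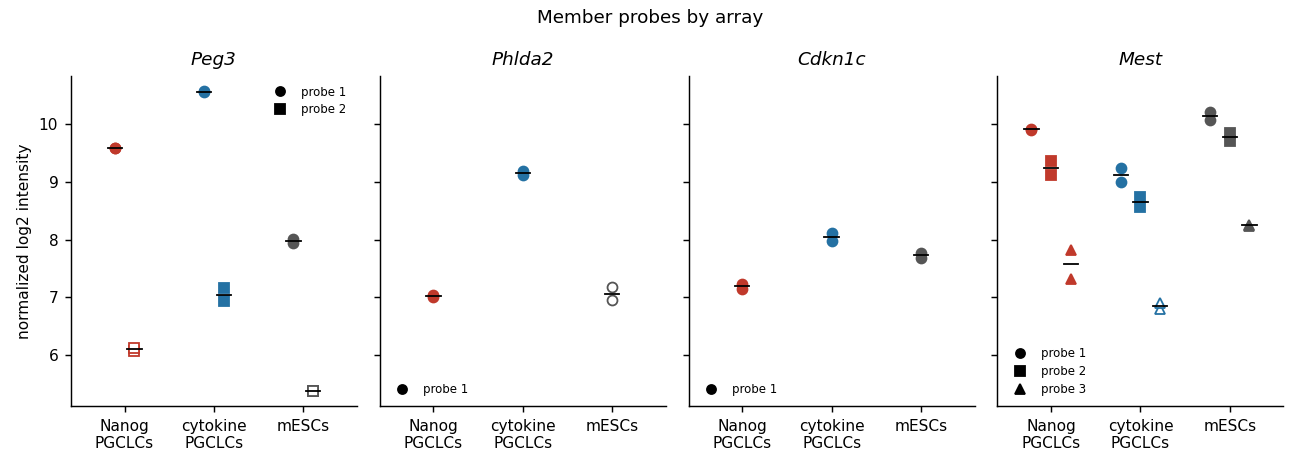
Normalized log2 intensity of each member probe (vertical axis) on each array, by group, with the groups in the order Nanog PGCLCs, cytokine PGCLCs and mESCs. Each point is 1 array, black lines are group means, and open symbols mark a probe detected on fewer than 2 arrays of that group. Peg3 and Phlda2 are highest in cytokine PGCLCs, at 10.55 and 10.58 and at 9.12 and 9.18, and every Mest probe is lowest there.

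**Figure D2:**
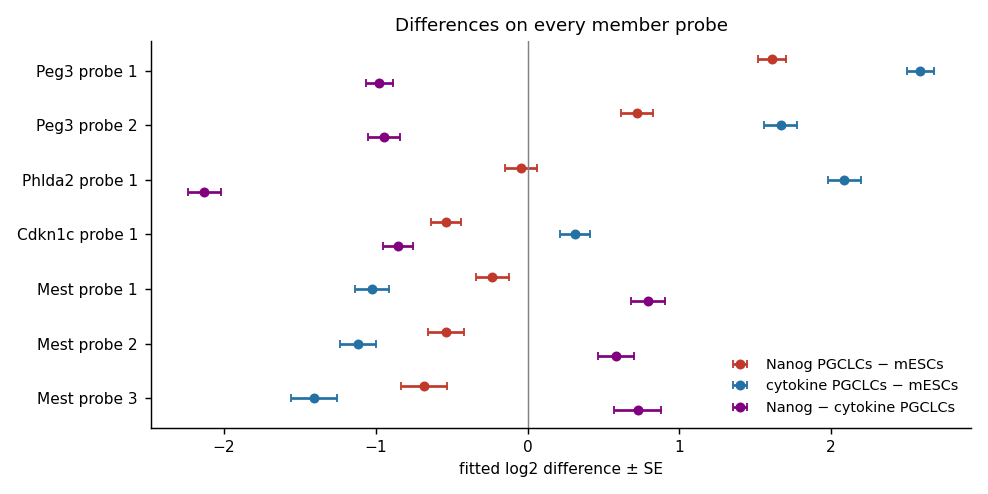
Fitted log2 difference with its SE (horizontal axis) for each of the 7 member probes in the 3 comparisons. All probes of a gene lie on the same side of 0 in each comparison, and Phlda2 in Nanog PGCLCs against mESCs lies at -0.04, within its SE of 0. The second Peg3 probe was not detected in Nanog PGCLCs or mESCs.

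The 4 genes fell into no common pattern. Between Nanog and cytokine PGCLCs, where the mESC arrays play no part, Peg3, Phlda2 and Cdkn1c were lower in Nanog PGCLCs, with differences of -0.98, -2.13 and -0.85, and Mest was higher, with a difference of 0.79. The direction did not follow the parent of origin: paternally expressed Peg3 and Mest pointed opposite ways, and maternally expressed Phlda2 and Cdkn1c the same way. At the threshold of the fit, 2 of the 4 passed in Nanog PGCLCs against mESCs, where 54.1% of all genes did. All 4 passed in cytokine PGCLCs against mESCs, where 54.7% of genes did, and in Nanog against cytokine PGCLCs, where 22.6% did. A difference of at least 2-fold was found for 1, 3 and 1 members in those comparisons, beside 10.4%, 10.7% and 2.43% of all genes. Arrays of the 2 groups did not overlap for 3, 4 and 4 members, beside 78.4%, 78.9% and 63% of all genes. Nothing is read from these counts, since the members were chosen on these values. Both comparisons with mESCs share the mESC arrays.

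The size of the differences, but mostly not their direction, depended on how the arrays were processed. In the authors' deposited table of log2 values the differences in cytokine PGCLCs against mESCs were 1.92 for Peg3, 1.20 for Phlda2, 0.17 for Cdkn1c and -0.81 for Mest. In that table Nanog PGCLCs differed from cytokine PGCLCs by -0.82 for Peg3, -1.23 for Phlda2, -0.43 for Cdkn1c and 0.62 for Mest. There 2 members, in place of 3, were at least 2-fold apart in cytokine PGCLCs against mESCs, with Mest below that size.

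**Figure D3:**
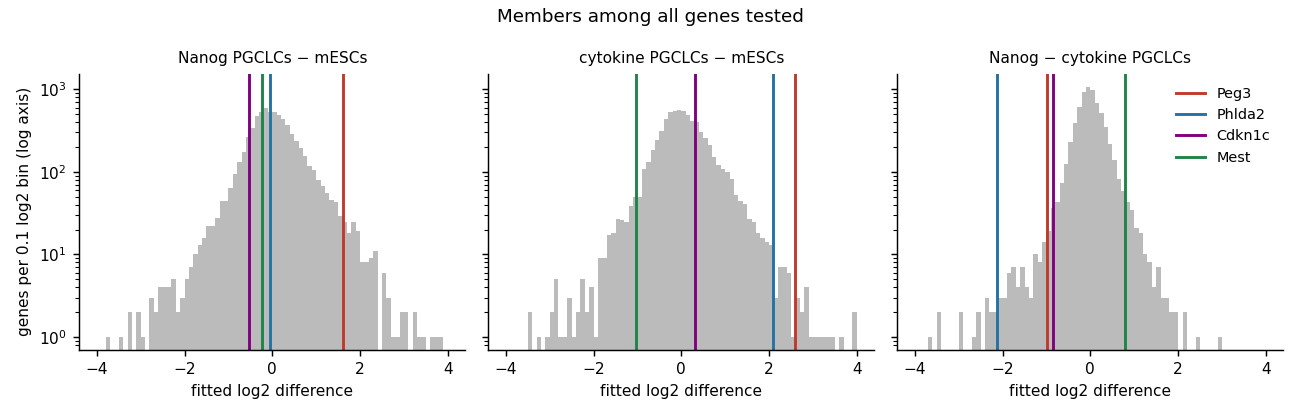
Number of genes per 0.1 log2 bin (log axis) against the fitted log2 difference for all 6823 genes tested, in each comparison, with differences beyond 4 drawn at 4. Coloured lines mark the members: Peg3 at 1.61, 2.59 and -0.98, Phlda2 at -0.04, 2.09 and -2.13, Cdkn1c at -0.54, 0.31 and -0.85, and Mest at -0.23, -1.03 and 0.79.

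Other imprinted genes moved in both directions as well. Of 54 listed, 20 had a named probe and 17 were tested. In Nanog PGCLCs against mESCs 6 rose and 5 fell, in cytokine PGCLCs against mESCs 8 rose and 4 fell, and in Nanog against cytokine PGCLCs 1 rose and 5 fell (limma, adjusted p below 0.05). The shares called were 64.7%, 70.6% and 35.3%, beside 54.1%, 54.7% and 22.6% of all genes. By direction, 28.2% of all genes rose and 25.9% fell in the first comparison, 29.9% rose and 24.8% fell in the second, and 11.4% rose and 11.1% fell in the third. The median differences were 0.157, 0.251 and -0.163, and those of all genes were -0.004, 0.011 and -0.020. With arrays scaled to a common median the first count was 10 risen and 4 fallen and the median of all genes moved to 0.206. Leaving out any 1 PGCLC array lowered the calls between Nanog and cytokine PGCLCs to 3, with 1 risen and 2 fallen.

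Among the 11 paternally expressed genes tested, 4 rose and 4 fell in Nanog PGCLCs against mESCs, 6 rose and 2 fell in cytokine PGCLCs against mESCs, and 0 rose and 4 fell in Nanog against cytokine PGCLCs. The last count was 1 to 4 when 1 array was left out. Ndn, a MAGE family gene from the region deleted in Prader-Willi syndrome, rose by 1.34 ± 0.09 in Nanog PGCLCs (adjusted p = 1.47e-05, limma) and by 1.67 ± 0.09 in cytokine PGCLCs (adjusted p = 5.39e-06). Its order of groups was that of Peg3, but its difference of -0.33 ± 0.09 between Nanog and cytokine PGCLCs, at an adjusted p of 0.0395, was no longer called when any 1 PGCLC array was left out, at 0.102 to 0.152. Zdbf2 also rose on both routes, by 0.68 ± 0.09 in Nanog PGCLCs (adjusted p = 0.000424) and 0.53 ± 0.09 in cytokine PGCLCs (adjusted p = 0.00155).

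Slc38a4, an amino acid transporter gene, was detected on both arrays of each PGCLC group and on neither mESC array. It was called higher in Nanog PGCLCs (adjusted p = 0.00145), with a bound of 1.00-fold, and was at least 1.12-fold higher in cytokine PGCLCs (adjusted p = 0.000447). Mkrn3, a ring finger gene of the Prader-Willi region, was at least 1.67-fold higher in cytokine PGCLCs than in mESCs, where neither array detected it (adjusted p = 0.000264). It fell by 0.64 ± 0.10 in Nanog against cytokine PGCLCs (adjusted p = 0.003), the same direction as Peg3. Dio3, which inactivates thyroid hormone, was detected on no PGCLC array and was at least 1.69-fold lower in Nanog PGCLCs and in cytokine PGCLCs than in mESCs (adjusted p = 1.45e-05 and 4.1e-05). Plagl1, a zinc finger gene linked to growth control, fell by 0.64 ± 0.09 in Nanog PGCLCs (adjusted p = 0.000482) and by 0.38 ± 0.09 in cytokine PGCLCs (adjusted p = 0.00666), the second not called under median scaling.

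Of the 6 maternally expressed genes tested, 2 rose and 1 fell in Nanog PGCLCs against mESCs, 2 rose and 2 fell in cytokine PGCLCs against mESCs, and 1 rose and 1 fell in Nanog against cytokine PGCLCs. When 1 array was left out, 1 or 2 rose in the first comparison, 1 or 2 fell in the second and 0 or 1 fell in the third. Of the 2 lower in the second, Gnas, the gene of a G protein alpha subunit, was detected in neither group, at -0.53. Ppp1r9a, a gene for an actin-binding partner of protein phosphatase 1, read 8.37 and 8.48 in Nanog PGCLCs, 8.34 and 8.22 in cytokine PGCLCs, and 6.45 and 6.47 in mESCs, where it was not detected. It was at least 2.50-fold higher in Nanog PGCLCs (adjusted p = 2.65e-06) and at least 2.26-fold higher in cytokine PGCLCs (adjusted p = 3.98e-06). Igf2r, the receptor that clears the growth factor IGF2, rose by 0.73 ± 0.11 in cytokine PGCLCs against mESCs (adjusted p = 0.000749). It differed by 0.20 ± 0.11 in Nanog PGCLCs against mESCs (adjusted p = 0.143) and by -0.52 ± 0.11 in Nanog against cytokine PGCLCs (adjusted p = 0.012), a call lost without cytokine PGCLC replicate 1 or either Nanog PGCLC replicate, at 0.0552 to 0.0834. Its other probe was called higher in Nanog PGCLCs against mESCs, at 0.51 (adjusted p over probes 0.0052). The gene was also called there under median scaling (0.54), cyclic loess (0.31) and the mean of its probes (0.36).

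Gnas, a locus of overlapping transcripts that the probe does not separate by parent, read 7.26 and 7.44 in Nanog PGCLCs, 6.20 and 6.25 in cytokine PGCLCs, and 6.96 and 6.56 in mESCs. Nanog PGCLCs alone detected it, and it was at least 1.37-fold higher there than in cytokine PGCLCs (adjusted p = 0.00105). It was at least 1.18-fold higher in Nanog PGCLCs than in mESCs (adjusted p = 0.00748), which was not called without Nanog PGCLC replicate 2, at 0.0539. Cd81, a membrane tetraspanin gene in the same imprinted cluster as Cdkn1c and Phlda2, fell by 0.57 ± 0.09 in Nanog PGCLCs (adjusted p = 0.000926) and by 0.47 ± 0.09 in cytokine PGCLCs (adjusted p = 0.00257). Tssc4 and Nap1l4 of that cluster were called in no comparison of the main fit, with differences between -0.24 and 0.25. Some other settings called Nap1l4 higher in cytokine PGCLCs than in mESCs (0.23 in the authors' table). Some also called it lower in Nanog than in cytokine PGCLCs (-0.22 in that table). Median scaling called Tssc4 higher than in mESCs in Nanog PGCLCs (0.38) and in cytokine PGCLCs (0.32).

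**Figure D4:**
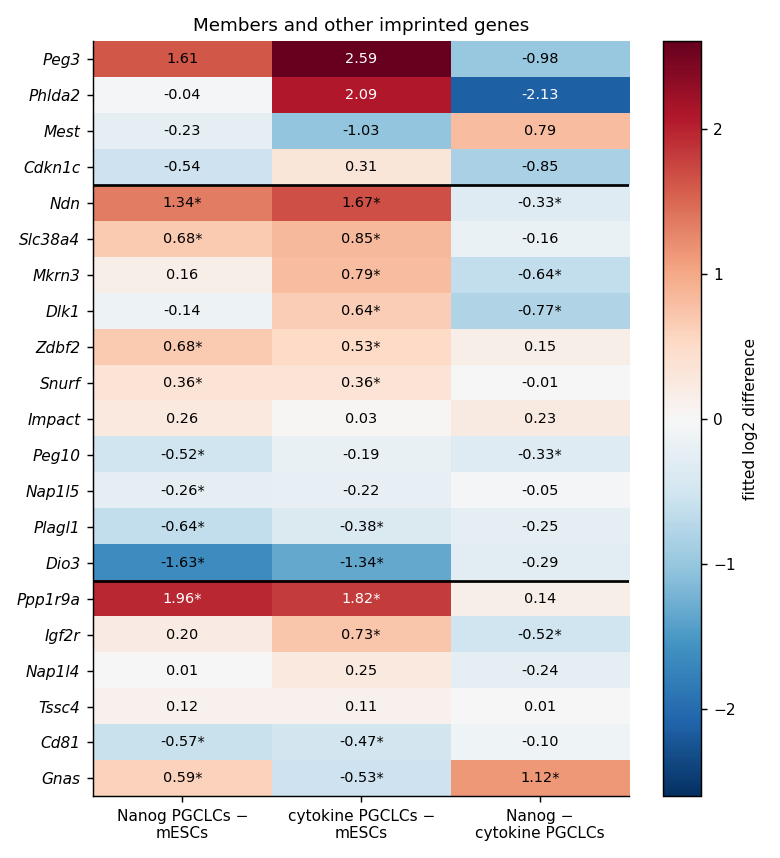
Heat map of the fitted log2 difference for the members and the 17 other imprinted genes tested (rows) in the 3 comparisons (columns). Asterisks mark other imprinted genes called by limma at an adjusted p below 0.05, and members carry none. Ndn (1.34 and 1.67) and Ppp1r9a share the direction of Peg3 against mESCs, and of the other imprinted genes Dio3 lies lowest against mESCs.

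Most genes beside the members on the chromosome were not tested, and those tested did not all move with their member. For this view, added after the values were seen, the 8 protein-coding genes on each side in RefSeq order were taken. Around Peg3, 2 of 16 neighbours were tested, and the nearest on each side, Zim1 and Usp29, were not among them. Aurkc, a meiotic Aurora kinase gene, rose by 1.26 ± 0.10 in Nanog PGCLCs against mESCs (limma, adjusted p = 2.74e-05) and by 1.59 ± 0.10 in Nanog against cytokine PGCLCs (adjusted p = 3.39e-05), where Peg3 was lower. It read 10.15 and 10.29 in Nanog PGCLCs, 8.55 and 8.70 in cytokine PGCLCs, and 8.98 and 8.94 in mESCs, and a second Aurkc probe gave 1.39 and 1.25 in those comparisons. Olfr1349, an olfactory receptor gene and the other neighbour tested, was called in no comparison.

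Around Cdkn1c and Phlda2, 5 of 17 neighbours were tested. In Nanog PGCLCs against mESCs 0 rose and 3 fell, in cytokine PGCLCs against mESCs 1 rose and 2 fell, and in Nanog against cytokine PGCLCs 0 rose and 2 fell. The last count was 1 or 2 when 1 array was left out, since Cars was not called without cytokine PGCLC replicate 1 or either Nanog PGCLC replicate, at 0.0612 to 0.216. It was detected in neither of these 2 groups. Of all genes, 28.2%, 29.9% and 11.4% rose in the 3 comparisons, and 25.9%, 24.8% and 11.1% fell. Tnfrsf22, a decoy receptor gene of the TNF family, had the order of Cdkn1c: it read 6.16 and 6.36 in Nanog PGCLCs, 8.45 and 8.49 in cytokine PGCLCs, and 7.89 and 8.16 in mESCs. It was at least 2.20-fold lower in Nanog PGCLCs than in mESCs (adjusted p = 1.17e-05) and at least 3.00-fold lower than in cytokine PGCLCs (adjusted p = 1.64e-05). The rise of 0.45 ± 0.12 in cytokine PGCLCs against mESCs (adjusted p = 0.0136) was not called without mESC replicate 1 or without either cytokine PGCLC replicate, at 0.0593 to 0.0784. Cars, a transfer RNA synthetase gene, was detected in mESCs alone and was at least 1.39-fold lower in Nanog PGCLCs (adjusted p = 7.73e-05) and at least 1.39-fold lower in cytokine PGCLCs (adjusted p = 0.000722).

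Around Mest, 5 of 16 neighbours were tested. Of these, 4 rose and 0 fell in Nanog PGCLCs against mESCs, 4 rose and 1 fell in cytokine PGCLCs against mESCs, and 1 rose and 1 fell in Nanog against cytokine PGCLCs. When 1 array was left out, 2 to 4 rose in the first comparison, 0 or 1 fell in the second, and 0 or 1 rose and 0 or 1 fell in the third. Of all genes, 28.2%, 29.9% and 11.4% rose in the 3 comparisons, and 25.9%, 24.8% and 11.1% fell. Copg2, a coat protein gene next to Mest, read 8.29 and 8.54 in Nanog PGCLCs, 8.34 and 8.62 in cytokine PGCLCs, and 7.00 and 6.96 in mESCs, where it was not detected. It was at least 2.49-fold higher in Nanog PGCLCs (adjusted p = 4.59e-05) and at least 2.59-fold higher in cytokine PGCLCs (adjusted p = 3.84e-05), while Mest lay lower in both. Mkln1 rose by 0.46 ± 0.09 in Nanog PGCLCs (adjusted p = 0.00271) and by 0.44 ± 0.09 in cytokine PGCLCs (adjusted p = 0.00333). Tmem209, a transmembrane protein gene, moved in the direction of Mest, at -0.33 ± 0.11 in cytokine PGCLCs against mESCs (adjusted p = 0.0299) and 0.46 ± 0.11 in Nanog against cytokine PGCLCs (adjusted p = 0.0187). The first call was lost under median scaling (adjusted p = 0.437) and without mESC replicate 2 or either cytokine PGCLC replicate, at 0.0786 to 0.137. The second was lost without either cytokine PGCLC replicate or Nanog PGCLC replicate 2, at 0.0771 to 0.116. Neither of its other 2 probes was called.

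**Figure D5:**
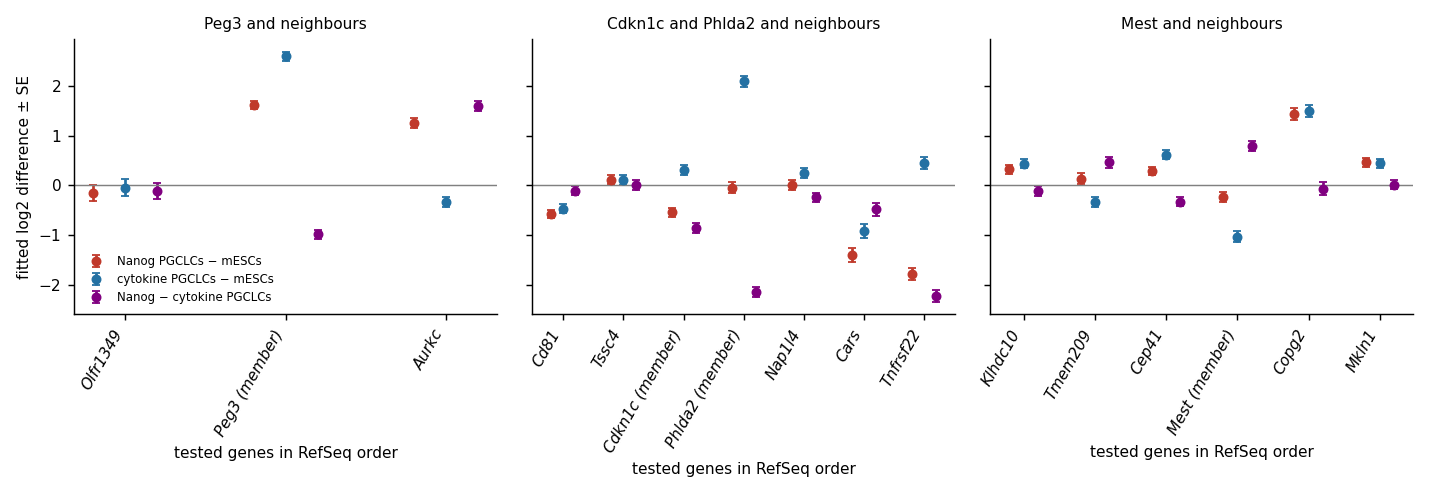
Fitted log2 difference with its SE (vertical axis) for members and their tested neighbours, in RefSeq order along the horizontal axis, in the 3 comparisons. Copg2 and Mest lie on opposite sides of 0 against mESCs, and Aurkc and Peg3 on opposite sides in Nanog against cytokine PGCLCs (1.59 and -0.98).

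Proteins that keep imprints through cell division form another set, of which 8 of 11 listed genes were tested. The share called was 87.5%, 62.5% and 25% in the 3 comparisons, beside 54.1%, 54.7% and 22.6% of all genes. In Nanog PGCLCs against mESCs 3 rose and 4 fell, in cytokine PGCLCs against mESCs 3 rose and 2 fell, and in Nanog against cytokine PGCLCs 1 rose and 1 fell, beside median differences of -0.048, 0.092 and -0.003. When 1 array was left out, 1 or 2 fell in the second comparison, and 0 rose and 0 or 1 fell in the third. Dppa3, which shields methylation in the early embryo and is also a germ cell marker, rose by 1.40 ± 0.09 in Nanog PGCLCs (limma, adjusted p = 1.1e-05) and by 1.22 ± 0.09 in cytokine PGCLCs (adjusted p = 2.15e-05). Smchd1, a chromatin protein needed at some imprinted clusters, rose by 1.28 ± 0.09 in Nanog PGCLCs (adjusted p = 1.39e-05) and by 1.24 ± 0.09 in cytokine PGCLCs (adjusted p = 1.62e-05). Dnmt1, the maintenance methyltransferase, rose by 0.45 ± 0.09 in Nanog PGCLCs (adjusted p = 0.00326) and by 0.38 ± 0.09 in cytokine PGCLCs (adjusted p = 0.00787), the second not called without cytokine PGCLC replicate 2 (0.0505).

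Uhrf1, the partner that guides Dnmt1 to replicating DNA, fell by 0.69 ± 0.10 in cytokine PGCLCs against mESCs (adjusted p = 0.000673). Its difference in Nanog PGCLCs against mESCs was -0.36 ± 0.10 (adjusted p = 0.0169), a call lost without mESC replicate 2 (0.0826) or Nanog PGCLC replicate 2 (0.0936). Trim28, the co-repressor at imprint control regions, fell by 0.54 ± 0.10 in Nanog PGCLCs (adjusted p = 0.00187). Its difference in cytokine PGCLCs was -0.25 ± 0.10 (adjusted p = 0.0591). Some other settings called Trim28 lower there (-0.24 in the authors' table and -0.27 under cyclic loess). Setdb1, the histone methyltransferase that Trim28 recruits, fell by 0.55 ± 0.11 in Nanog PGCLCs (adjusted p = 0.0032), which was not called under median scaling.

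Cdkn1c acts on cyclin and kinase pairs, and 10 of 16 listed inhibitors and partners were tested. Calls made up 60%, 50% and 40% of them in the 3 comparisons, beside 54.1%, 54.7% and 22.6% of all genes. In Nanog PGCLCs against mESCs 0 rose and 6 fell, in cytokine PGCLCs against mESCs 2 rose and 3 fell, and in Nanog against cytokine PGCLCs 1 rose and 3 fell, beside median differences of -0.308, -0.166 and -0.154. The first count was 2 to 5 fallen when 1 array was left out. It includes Ccnd2, a D-type cyclin gene, at -0.38 with detection in neither group, and its second probe gave 0.23. Cdkn1a, the sister inhibitor, fell by 0.86 ± 0.10 in Nanog PGCLCs against mESCs (limma, adjusted p = 0.000235) and by 0.70 ± 0.10 in Nanog against cytokine PGCLCs (adjusted p = 0.00257). Cytokine PGCLCs differed from mESCs by -0.16 ± 0.10 for this gene (adjusted p = 0.215), while its other 2 probes were called lower there, at -0.48 and -0.43 (adjusted p over probes 0.0127 and 0.0313). Ccnd1, the cyclin of early G1 phase, fell by 2.24 ± 0.10 in Nanog PGCLCs (adjusted p = 1.98e-06) and by 1.44 ± 0.10 in cytokine PGCLCs (adjusted p = 1.34e-05), with all its probes in the same direction.

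Ccnd2, a related cyclin, was detected in cytokine PGCLCs alone, where it was at least 4.15-fold higher than in mESCs (adjusted p = 4.54e-06). Nanog PGCLCs were at least 4.82-fold lower than cytokine PGCLCs (adjusted p = 1.12e-05). Ccne1, the cyclin that acts at the start of DNA replication, fell by 1.27 ± 0.14 in cytokine PGCLCs against mESCs (adjusted p = 0.000144). It fell by 0.56 ± 0.14 in Nanog PGCLCs against mESCs (adjusted p = 0.0102), a call lost without mESC replicate 2 (0.057) or Nanog PGCLC replicate 1 (0.0692).

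Phlda2 has sister PH domain genes and belongs with the insulin-like growth factor genes in placental growth, and 9 of 15 such genes were tested. Calls reached 66.7%, 55.6% and 11.1% of them in the 3 comparisons, beside 54.1%, 54.7% and 22.6% of all genes. In Nanog PGCLCs against mESCs 3 rose and 3 fell, in cytokine PGCLCs against mESCs 3 rose and 2 fell, and in Nanog against cytokine PGCLCs 0 rose and 1 fell, beside medians of -0.223, -0.132 and -0.173. When 1 array was left out, 2 or 3 rose and 2 or 3 fell in the first comparison and 0 or 1 fell in the third. Phlda3, the sister gene tested, fell by 1.12 ± 0.12 in Nanog PGCLCs (limma, adjusted p = 0.00012) and by 0.80 ± 0.12 in cytokine PGCLCs (adjusted p = 0.00072), where Phlda2 was higher. Igfbp2, which binds the growth factors, fell by 0.95 ± 0.11 in Nanog PGCLCs (adjusted p = 0.000232) and by 1.18 ± 0.11 in cytokine PGCLCs (adjusted p = 7.57e-05). The receptor gene Igf1r, not detected in mESCs, was called higher in Nanog PGCLCs (adjusted p = 0.000203), where the bound allows no fold, and was at least 1.05-fold higher in cytokine PGCLCs (adjusted p = 7.03e-05).

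Phlda2 and Cdkn1c are also strongly expressed in placenta in the mouse. Of 14 trophoblast markers listed, 3 were tested. Called higher in cytokine PGCLCs than in mESCs, where Phlda2 was higher too, were 2 of these 3, beside 29.9% of all genes. The summed normalized intensity of the 3 was 319 to 331 in Nanog PGCLCs, 916 to 924 in cytokine PGCLCs and 511 to 527 in mESCs. Cdx2, a transcription factor of trophoblast that posterior mesoderm also expresses, was detected in cytokine PGCLCs alone. It was at least 2.58-fold higher there than in mESCs (limma, adjusted p = 9.49e-06), and at least 3.00-fold lower in Nanog PGCLCs than in cytokine PGCLCs (adjusted p = 1.18e-05). Krt8, a keratin of simple epithelia, rose by 1.09 ± 0.11 in cytokine PGCLCs against mESCs (adjusted p = 7.75e-05) and fell by 1.24 ± 0.11 in Nanog against cytokine PGCLCs (adjusted p = 0.000174). Tfap2a, the third, differed by -0.21 ± 0.12 in cytokine PGCLCs against mESCs (adjusted p = 0.156). The part of other cell types in the Phlda2 level was not tested.

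Mesoderm and fibroblast markers, with 4 of 13 tested, summed to 415 to 440 in Nanog PGCLCs, 512 to 543 in cytokine PGCLCs and 1200 to 1240 in mESCs. The higher sum in mESCs came mostly from Vim and Acta2, with group means of 8.99 and 8.75 there. Foxf1 and Kdr, at 7.12 and 7.14 in mESCs, were each detected on 1 of 2 mESC arrays. Endoderm markers, with 2 of 7 tested, summed to 220 to 245 in Nanog PGCLCs, 297 to 311 in cytokine PGCLCs and 264 to 274 in mESCs. Dab2, an endocytic adaptor of extraembryonic endoderm, was at least 1.03-fold higher in cytokine PGCLCs than in mESCs (limma, adjusted p = 0.00888), a call lost without cytokine PGCLC replicate 2 (0.0676). The germ cell markers summed to 20100 to 20200 in Nanog PGCLCs, 23800 to 24000 in cytokine PGCLCs and 11400 to 11600 in mESCs. Their sums thus had the order of Peg3 levels, but sums of unlogged intensities weigh the brightest genes most. Group means of Tfap2c, Nanos3, Dnd1, Prdm14 and Ifitm3 had that order too. Dppa3 read higher in Nanog PGCLCs (11.71) than in cytokine PGCLCs (11.53), and Kit differed by -0.01 ± 0.10 in Nanog PGCLCs against mESCs. The part of germ cell content in the order of Peg3 levels was not tested.

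Genes with the pattern most like each member were named by Pearson r over the 6 arrays, among genes whose group means span at least 1 log2 unit. With 3 groups these values rest on few independent points and are a description. Peg3 was most like Atp8a1 (r = 0.9983), a phospholipid flippase gene, Kat8 (0.9979), a histone acetyltransferase gene, and Spg7 (0.9968), a mitochondrial protease gene. Spg7 read 9.72 and 9.71 in Nanog PGCLCs, 10.03 and 10.12 in cytokine PGCLCs, and 9.03 and 9.07 in mESCs, the order of Peg3 over a smaller span. Phlda2 was most like Id3 (0.9976), a common target of BMP signalling, Hba-x (0.9974), an embryonic alpha-like globin gene, and Flrt3 (0.9972), a membrane protein gene of cell adhesion. Id3, Hba-x and Flrt3 were detected in cytokine PGCLCs alone and passed the filter only through those arrays. Hba-x read 8.81 and 8.92 in cytokine PGCLCs, 5.29 and 5.23 in Nanog PGCLCs, and 5.23 and 5.25 in mESCs.

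Cdkn1c was most like Zfp951 (0.9906), Axin2 (0.9882), a common target of WNT signalling, and Rasgrp1 (0.9872), an activator of RAS. Zfp951 was detected in cytokine PGCLCs alone, so its order of Nanog PGCLCs and mESCs rests on readings without detection. Axin2 read 6.15 and 6.03 in Nanog PGCLCs, where it was not detected, 8.60 and 8.61 in cytokine PGCLCs, and 7.61 and 7.85 in mESCs, a wider span than that of Cdkn1c. Mest was most like Fblim1 (0.9973), which links filamin to cell adhesions, Tubb6 (0.9926), a tubulin gene, and Fam25c (0.9902). Fblim1 read 10.07 and 10.12 in Nanog PGCLCs, 9.22 and 8.98 in cytokine PGCLCs, and 10.34 and 10.23 in mESCs. No gene was named for more than 1 of the 4 members, whose levels over the groups already differed.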

How the data were processed

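Total RNA was labelled with biotin and read on Illumina mouse BeadChips, per the labels' protocols. The deposited intensity values are raw per probe, and the deposited detection p-values set each probe against its array's negative controls, per the file headers. The authors' table of log2 values covers 11542 probes, with a median of 8.982 for mESC replicate 1. How that table was normalized was not checked here. The submitters' processing notes name limma without a version, and no source used here gives their background treatment.

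Here limma 3.58.1 in R 4.3.3 corrected the raw intensities by normexp, with control levels inferred from detection p-values and an offset of 16, followed by log2 and quantile normalization. A probe was kept when 2 or more of the 6 arrays had its detection p under 0.01 (10673), and 9314 had a gene name. Of the probes in the authors' table, 10057 had 1 symbol, 4 several and 1481 none in the platform annotation, and 10050 matched RefSeq by Entrez identifier with 0 symbols changed. Probes outside that table had no gene name here, so a gene without a probe in it could not be tested. The named probe with the highest mean stood for a gene (6823). One model of 3 groups was fitted (lmFit, eBayes, 3 residual and 5.16 prior degrees of freedom), with two-sided p-values adjusted by Benjamini-Hochberg over every gene tested and calls below 0.05. A gene with no detected probe on both arrays of a group was given as a bound, which sets the mean of the brighter group against the lowest detected signal of each dim array, or the gene's own signal where that was higher. The fit was tested on simulated data.

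The members and all gene lists were chosen with earlier results of these data known. Up to 6 genes per list with the smallest adjusted p, and 3 most similar genes per member, were named, and neighbouring genes were added after values were seen. Alternatives covered background, offset, scaling, filter, probe choice, variance trend, replicate block, arrays fitted and each array left out. Same-numbered arrays of different groups had deviations that correlated at -0.004 to 0.079.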

Additional observations from a re-analysis of the deposited data

How the results depend on the processing

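Over 16 alternatives the members kept their sign in all comparisons, except Phlda2 in Nanog PGCLCs against mESCs, which kept it in 14. Several alternatives left each member's difference unchanged and so could not test its sign. These were the looser filter, the variance trend, the replicate block, the fit of only the arrays compared, and leaving out an array of the third group. The members' ranges without left-out arrays were 1.07 to 1.89 for Peg3, -0.04 to 0.18 for Phlda2, -0.54 to -0.23 for Cdkn1c and -0.48 to -0.04 for Mest in Nanog PGCLCs against mESCs. In cytokine PGCLCs against mESCs they were 1.88 to 2.78, 1.16 to 2.26, 0.16 to 0.58 and -1.18 to -0.80. In Nanog against cytokine PGCLCs they were -0.98 to -0.81, -2.13 to -1.18, -0.85 to -0.41 and 0.61 to 0.83. The smallest differences of Peg3 and Phlda2 from mESCs in cytokine PGCLCs came without background correction. Genes at least 2-fold apart numbered 711, 727 and 166 in the 3 comparisons, but 168, 167 and 38 without background correction and 173, 177 and 41 in the authors' deposited table. With arrays scaled to a common median, the median of all genes moved to 0.206, 0.162 and 0.040, and the share of higher among called genes was 76.5%, 72.9% and 63.3%, against 52.1%, 54.6% and 50.6%. Leaving out 1 array gave 634 to 1590 genes called between Nanog and cytokine PGCLCs, where all arrays gave 1539, and 3 to 6 other imprinted genes, where all arrays gave 6. The replicate numbers did not pair the arrays, and with the replicate block 3699, 3731 and 1517 genes were called, against 3694, 3734 and 1539. Over the other genes tested for the text and all alternatives, 3574 results stayed on their side of the threshold, 186 lost the call, 75 gained it and 5 changed sign with a call before or after. These were Sox7 (0.0192) and Nap1l5 (0.0014) under median scaling, Hba-x in the authors' table (-0.2311) and Igf2bp3 by the mean of probes (-0.5652), all in Nanog PGCLCs against mESCs, and Impact by the mean of probes in cytokine PGCLCs against mESCs (-0.4691). A further 79 sign changes, counted among the 3574, had a call neither before nor after. The cause was not tested. A setting with no detection filter was not run apart, since every named probe was detected on at least 1 array. Readings of Phlda2 near the background limit its differences.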
